A study of Mus musculus with 9 samples.

Results

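The transcripts of 10 genes that carry signals between a salivary gland and its nerves were followed in mouse sublingual glands after irradiation. The genes were taken as a list of names, with no threshold on a measured value: the muscarinic acetylcholine receptors Chrm1 and Chrm3, the neurturin system Nrtn, Gfra2 and Ret, the neuropeptide Vip, the neuregulin pair Nrg1 and Erbb3, and the guidance cues Sema3a and Sema3c. They are 10 of the 54532 genes in the count tables, and all 10 passed the filter on low counts that left 15348 genes for testing. The libraries came from sublingual glands of wild-type (WT) mice: 3 taken 7 days after 10 Gy, 3 taken 14 days after 10 Gy and 3 that received no radiation. RNA came from thick tissue sections of each gland, so every library mixes acini, ducts, vessels, connective tissue and nerve. Whether the numbered libraries of a group came from different mice is not stated in the labels, so each p-value rests on variation among samples that could be partly technical. The labels used here give no sex or age.

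Salivary glands secrete on command of the nerves. Parasympathetic neurons with cell bodies in small ganglia beside or inside the gland release acetylcholine, which acts on muscarinic receptors of acinar cells and raises calcium through a Gq protein and phospholipase C, and they co-release vasoactive intestinal peptide. In the other direction the gland supplies the nerve: neurturin from epithelial cells binds GFRα2 and signals through the RET kinase of parasympathetic neurons. Neuregulin signals through ErbB receptors in developing salivary epithelium and in Schwann cells, and class 3 semaphorins are secreted cues that act through neuropilins and plexins on axons, vessels and epithelium.

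Total counts ran from 15962399 to 19441239 per library, and 3 counts corresponded to 0.154 to 0.188 CPM of these raw totals. All levels below are CPM scaled further by TMM to a common library size, so they differ somewhat from CPM of raw totals. A gene is said to rise or fall when its Benjamini-Hochberg adjusted p from edgeR's quasi-likelihood test, adjusted over all 15348 genes, was under 0.05. Log2 changes moved with the exonic length of the gene. At day 7 against unirradiated glands their median was −0.37 in the shortest length decile and 0.38 in the longest, so values corrected for length and GC content are given beside the results. With the correction the median log2 change of all genes moved from 0.02 to −0.06 at day 7 and from 0.01 to −0.03 at day 14. Corrected values are thus not centred on 0. The correction also changed the marker lists at day 7. Of 8 tested mucous acinar markers 1 was called higher and 7 lower without it, and 0 and 6 with it, and of 11 duct markers 2 were called higher and 3 lower without it, and 1 and 1 with it. Of all 15348 tested genes 2419 were called higher and 2273 lower without it, and 1130 and 2232 with it. Mucous acinar markers, which define this gland, were high in all libraries, with 9 genes summing to 233658 to 250407 CPM at day 7, 256282 to 281159 CPM at day 14 and 251790 to 349789 CPM in unirradiated glands. The lowest unirradiated sum was that of library 3, against 349789 and 324122 CPM in libraries 1 and 2. Unirradiated library 3 stood apart, with 17 neuron markers summing to 21.6 CPM, against 1.48 to 6.26 CPM in the other 8 libraries. The 15 kallikrein and renin genes of submandibular granular ducts summed to 2635, 3144 and 4729 CPM in unirradiated libraries 1, 2 and 3. Their sum was lower in every irradiated library, at 1539 to 1697 CPM at day 7 and 1541 to 2141 CPM at day 14. Of 14 tested, 4 were called lower at day 7 and 1 at day 14, where 14.8% and 0.632% of all tested genes were. Without library 3 the unirradiated sums still lie above all irradiated ones. The part of either list in the results was not tested, and results that rest on library 3 are given with and without it.

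At day 7, 5 of the 10 genes differed from unirradiated glands. Erbb3, Nrg1, Sema3a and Sema3c rose and Nrtn fell, where 30.6% of all tested genes were called (15.8% higher and 14.8% lower). Sema3a passed the filter on low counts only through irradiated libraries, so a rise was a condition of its being tested. Vip passed it only through unirradiated and day 7 libraries. At day 14, Sema3c alone was called against unirradiated glands, where 1.76% of all genes were called (1.13% higher and 0.632% lower). Between day 14 and day 7 edgeR called 0 of the 10, where 6.59% of all genes were called (3.72% higher and 2.87% lower). Of the 10, 4 had an unadjusted p under 0.05 in that comparison (Chrm1, Erbb3, Nrg1 and Vip). The share of all genes at that unadjusted p was not counted, so the 4 cannot be set against it. DESeq2 called 1 of the 10 (Vip), where it called 1426 of all 15348 tested genes. In limma-voom 2 were called (Chrm1 and Erbb3), where 1874 of all tested genes were. A test of any difference among the 3 groups called 4 of the 10 (Erbb3, adjusted p = 0.00345, Sema3c, 0.00915, Nrg1, 0.0189, and Nrtn, 0.0370), where it called 25.4% of all genes. In bulk tissue, fewer cells of a type and less RNA per cell cannot be told apart.

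**Figure D1:**
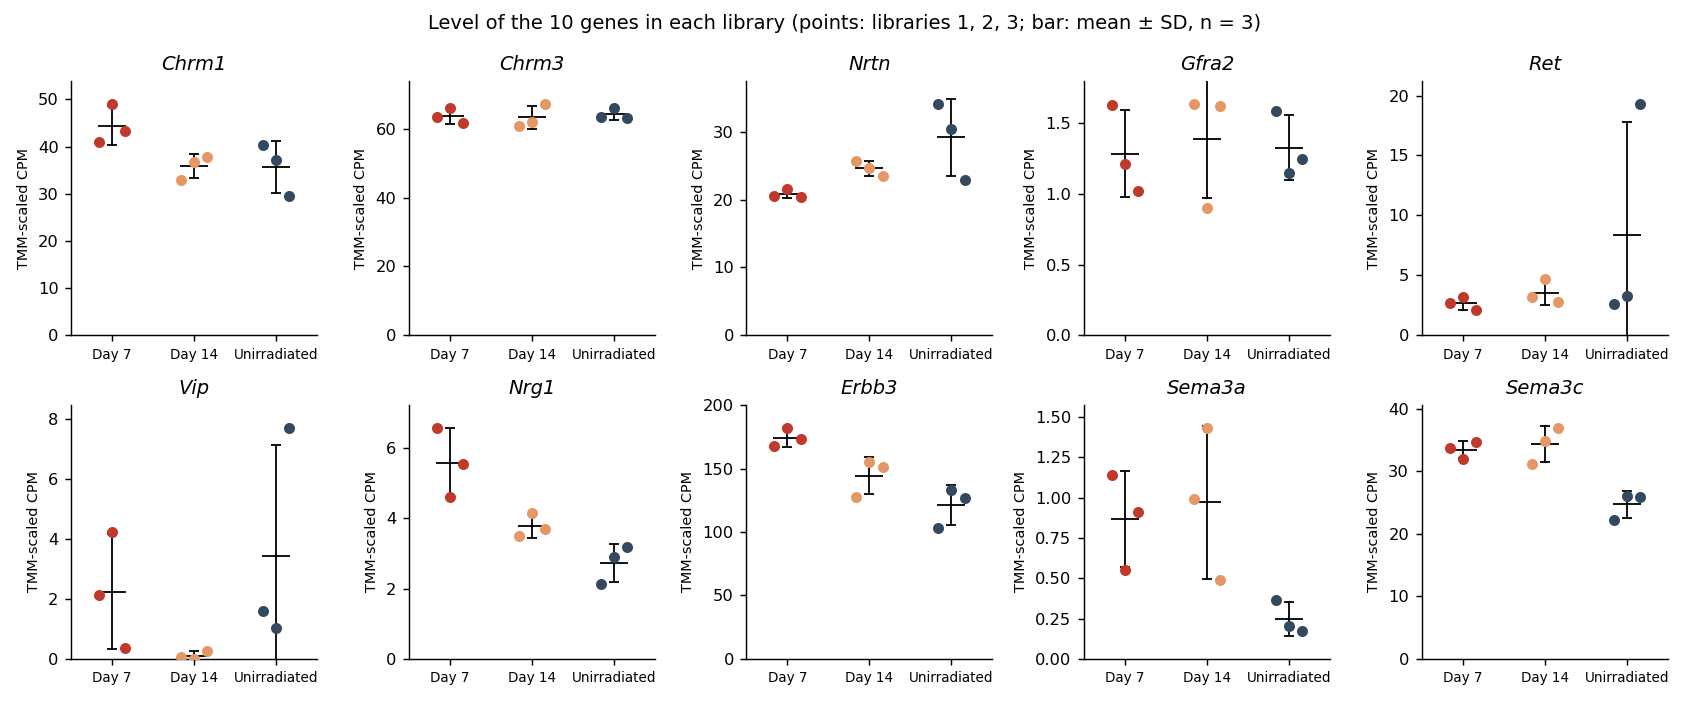
Each panel shows a gene as TMM-scaled CPM on a linear axis from 0. Points are the 3 libraries of day 7, day 14 and unirradiated glands, and bars are mean ± SD (SD bars are cut at 0). Chrm3 lies at the same height in all groups, the means of Erbb3 and Nrg1 step down from day 7 through day 14 to unirradiated glands, Sema3c is higher at both times, and the unirradiated points of Ret and Vip are spread by library 3.

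The comparison against unirradiated glands depended on the correction for length and GC content, which were corrected together and not told apart. With it, 1 of the 10 genes was called at day 7 (Erbb3), where edgeR called 21.9% of all tested genes, and 0 at day 14, where it called 0.938% of all tested genes. At day 14, 2 of the 10 (Sema3a and Vip) had an unadjusted p under 0.05 with it, and the share of all genes at that unadjusted p was not counted. The same correction changed the share of called genes that were higher, over all genes, to 33.6% at day 7, against 51.6% without it, and to 41.7% at day 14, against 64.1%. The longest genes of the set, Sema3a (13868 exonic bases) and Nrg1 (10351), fall in the length decile with the highest median, and the shortest, Nrtn (1023), in that with the lowest. Chrm1, Chrm3, Ret, Erbb3 and Sema3c share the eighth decile, whose median log2 change was 0.18 at day 7 and 0.08 at day 14.

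**Figure D2:**
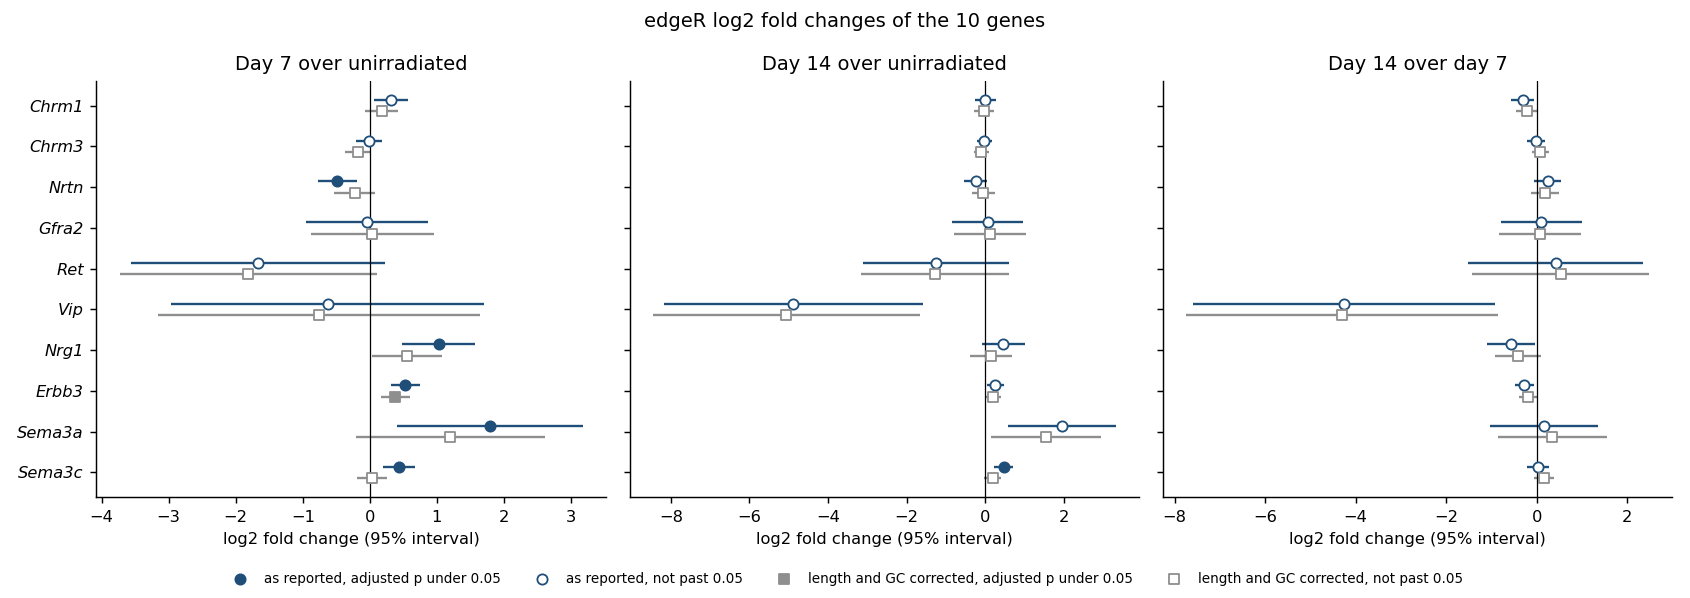
Log2 fold changes from edgeR (points) with 95% intervals (lines) for the 10 genes in the 3 comparisons; circles are the values as reported, squares those after the length and GC correction, and filled symbols have an adjusted p under 0.05. Of the 5 filled circles at day 7, only that of Erbb3 has a filled square beneath it, and the intervals of Ret, Vip and Sema3a are the widest.

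**Figure D3:**
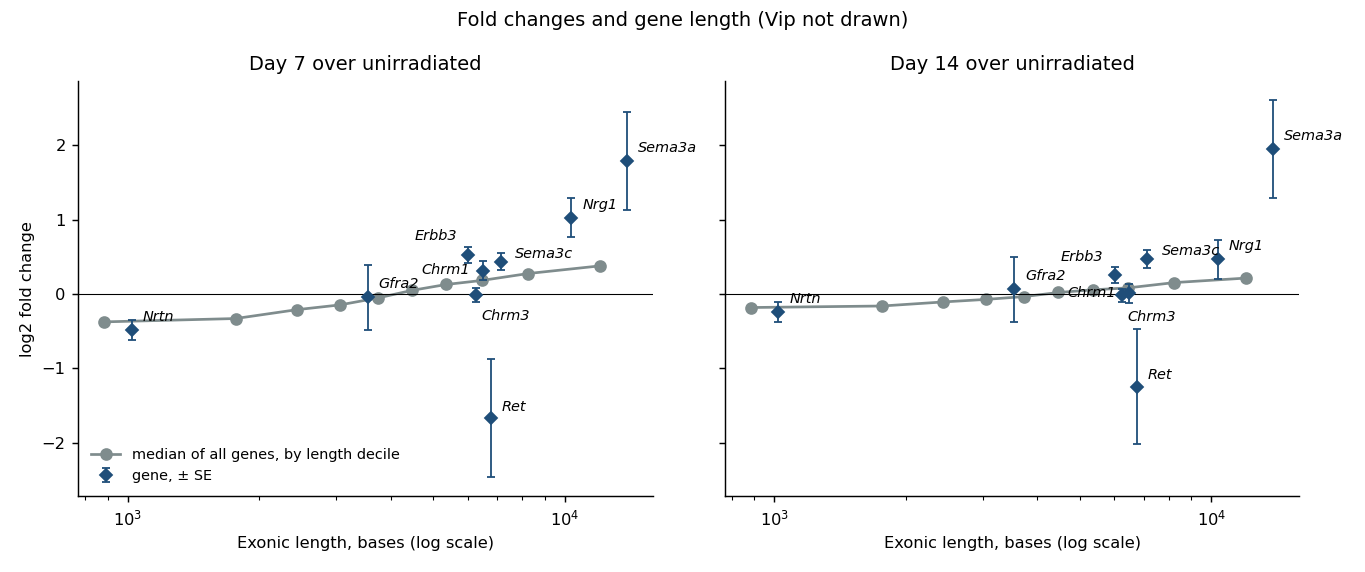
Log2 fold change against exonic length in bases (log axis) at day 7 and day 14 over unirradiated glands. Grey points join the median of all tested genes in each length decile, from −0.37 to 0.38 at day 7; diamonds are 9 of the genes with their SE (Vip is left out for scale). At day 7 Erbb3, Nrg1, Sema3a, Sema3c and Chrm1 lie above the grey line, while Nrtn, Chrm3 and Ret lie below it.

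Chrm3 encodes the muscarinic receptor that carries most cholinergic secretion in salivary acini, and its level hardly differed between groups (ENSMUSG00000046159, chromosome 13, 9875486 to 10360847, minus strand). Chrm3 had 63.5, 66.3 and 61.7 CPM at day 7, 61.1, 62.0 and 67.3 CPM at day 14, and 63.4, 66.2 and 63.3 CPM in unirradiated glands. The 9 values span 61.1 to 67.3 CPM and the groups overlap in every comparison. The log2 change was −0.01 at day 7 (95% interval −0.20 to 0.18) and −0.02 at day 14 (−0.21 to 0.18), among the narrowest intervals of the set. After the length and GC correction the change at day 7 was −0.18 (95% interval −0.37 to 0.01, adjusted p = 0.164).

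Chrm1, the second muscarinic receptor of salivary epithelium, lay in a lower range and varied more (ENSMUSG00000032773, chromosome 19, 8663789 to 8683587, plus strand). Chrm1 had 41.1, 49.0 and 43.2 CPM at day 7, 33.0, 36.8 and 37.8 CPM at day 14, and 40.3, 37.2 and 29.5 CPM in unirradiated glands. All 3 day 7 values lie above all values of the other groups, the nearest being unirradiated library 1. The difference did not pass the threshold (log2 0.32, SE 0.123, adjusted p = 0.0576 by edgeR). It passed without unirradiated library 1 (log2 0.41, adjusted p = 0.0316), with no filter on low counts (0.32, adjusted p = 0.0498) and in limma-voom (0.31, adjusted p = 0.0230), and after the length and GC correction it was 0.17. At day 14 the log2 change against unirradiated glands was 0.01 (95% interval −0.25 to 0.27), and against day 7 it was −0.31 (adjusted p = 0.134). In the gene model, 5.07% of the exonic bases of Chrm1 are shared with Gm22820 on the other strand, and the sources used here do not say whether reads were counted by strand.

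Within a library the ratio of the receptors does not depend on scaling between libraries. Per exonic length, Chrm1 stood at 0.623, 0.712 and 0.674 of the Chrm3 level at day 7, at 0.520, 0.571 and 0.542 at day 14, and at 0.613, 0.542 and 0.450 in unirradiated glands. Day 7 is above the other groups without overlap, narrowly so against unirradiated library 1, and day 14 lies inside the unirradiated range. The remaining muscarinic receptors were nearly silent: Chrm2 had 0 to 19 counts and Chrm4 0 to 20 counts per library, both below the filter, and Chrm5 had 0 in all 9 libraries.

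Downstream of these receptors, 6 of 14 tested genes of Gq, phospholipase C, calcium release and receptor desensitisation rose at day 7 and 1 fell. Of all tested genes 15.8% rose and 14.8% fell. The median log2 change of the 14 was 0.23 against 0.02 for all genes. After the length and GC correction 2 rose and 1, a gene other than Orai1, fell, where 1130 and 2232 of all 15348 tested genes did. The median of the 14 was then 0.09, against −0.06 for all genes. Itpr3, an IP3 receptor through which calcium leaves the endoplasmic reticulum, had 106, 112 and 86.0 CPM at day 7, 67.3, 67.9 and 66.3 CPM at day 14, and 56.2, 55.7 and 58.8 CPM in unirradiated glands. The 3 groups do not overlap. Itpr3 rose at day 7 (log2 0.83, SE 0.103, adjusted p = 2.92e-05) and was lower at day 14 than at day 7 (log2 −0.60, adjusted p = 0.00191), and both calls held in every alternative fit and omission run (0.68 and −0.48 after the length and GC correction). Itpr1, another IP3 receptor, also rose at day 7 and after the correction (0.65 and 0.31), and held in every omission.

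The other called genes of this group lost their call with the length and GC correction. Plcb4, a phospholipase C that Gq activates, rose at day 7 (log2 0.60, corrected 0.18), as did Stim1, the calcium sensor of the endoplasmic reticulum (0.39, corrected 0.19), and Gnaq, the Gq alpha subunit (0.33, corrected 0.10). Gnaq also lost its call without day 7 library 1 (0.21) or unirradiated library 1 (0.24). Orai1, the plasma membrane calcium channel that Stim1 opens, fell (−0.55, corrected −0.30). Bche, which encodes butyrylcholinesterase, an enzyme that breaks down choline esters, was the 1 gene called among 3 tested for acetylcholine synthesis, transport and breakdown. Of all tested genes 30.6% were called at day 7 and 1.76% at day 14. Bche rose at day 7 (log2 0.42, adjusted p = 0.0295) and at day 14 (0.73, adjusted p = 0.0211), with 15.4, 18.2 and 19.5 CPM at day 7, 22.1, 22.7 and 20.97 CPM at day 14, and 11.8, 13.2 and 14.5 CPM in unirradiated glands. Neither call of Bche passed after the length and GC correction (−0.06 at day 7 and 0.35 at day 14), with which 1 other gene of the 3 was called lower at day 7. Its day 7 call was also lost without day 7 library 2 (0.40) or 3 (0.35) or unirradiated library 1 (0.34) or 2 (0.41), and its day 14 call without day 14 library 1 (0.73), 2 (0.68) or 3 (0.76) or unirradiated library 1 (0.64) or 2 (0.71). Chat, the enzyme that makes acetylcholine, had 0 to 2 counts per library.

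Nrtn, the ligand neurturin, was the member of its pathway with the highest level and the only member of the set to fall (ENSMUSG00000039481, chromosome 17, 56751325 to 56757530, minus strand). Nrtn had 20.6, 21.5 and 20.4 CPM at day 7, 25.7, 24.6 and 23.5 CPM at day 14, and 34.1, 30.5 and 23.0 CPM in unirradiated glands. The 3 day 7 values lie close together and below all others, while the unirradiated values are wide and library 3 reaches below day 14. The log2 change at day 7 was −0.49 (SE 0.138, adjusted p = 0.0121), a fold of 0.714, and at day 14 it was −0.24 (adjusted p = 0.316). The day 7 call was lost without unirradiated library 1 (−0.36, adjusted p = 0.0773) and after the length and GC correction (−0.23, adjusted p = 0.293), and Nrtn was called at day 14 without unirradiated library 3 (−0.42, adjusted p = 0.0339). The gene is short, with 1023 exonic bases, and its transcript has 72.8% G and C.

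Neurturin is made by the epithelium of salivary glands, and most acinar markers also fell at day 7. Of 8 tested mucous acinar markers 7 fell and 1 rose, and of 11 duct markers 3 fell and 2 rose, where 14.8% of all tested genes fell and 15.8% rose. Duct markers summed to 1254 to 1438 CPM at day 7, 1331 to 1374 CPM at day 14 and 1467 to 1642 CPM in unirradiated glands. No acinar or duct marker was at 0 in all libraries of a group except 1 acinar marker at day 14. The part of these markers in the level of Nrtn was not tested.

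The receptor genes of neurturin were low. Gfra2, the co-receptor that binds neurturin (ENSMUSG00000022103, chromosome 14, 70890120 to 70979838, plus strand), had 1.63, 1.21 and 1.02 CPM at day 7, 1.64, 0.903 and 1.62 CPM at day 14, and 1.59, 1.147 and 1.24 CPM in unirradiated glands. These ranges overlap, and the 95% interval of the log2 change of Gfra2 ran from −0.95 to 0.86 at day 7 and from −0.84 to 0.97 at day 14, too wide to tell a change of Gfra2 at this depth. Per length, Nrtn exceeded Gfra2 by 43.7, 61.6 and 69.0 times at day 7, 54.4, 94.4 and 50.0 times at day 14, and 74.4, 92.0 and 63.8 times in unirradiated glands, again with overlap.

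Ret encodes the receptor tyrosine kinase that neurturin and GFRα2 activate (ENSMUSG00000030110, chromosome 6, 118151745 to 118197718, minus strand). Ret had 2.66, 3.19 and 2.10 CPM at day 7, 3.16, 4.73 and 2.76 CPM at day 14, and 2.56, 3.31 and 19.3 CPM in unirradiated glands. Unirradiated library 3, with 341 counts, is the library in which the neuron and granular duct markers were highest, and the other 8 values lie between 2.10 and 4.73 CPM. Against unirradiated glands the log2 change was −1.67 at day 7 (adjusted p = 0.165) and −1.25 at day 14 (adjusted p = 0.413), and without unirradiated library 3 it was −0.17 and 0.25. Ret is expressed by autonomic neurons. In the same library the neurotrophin receptor gene Ngfr reached 4.69 CPM, the neuronal tubulin Tubb3 5.15 CPM and Dbh, the noradrenaline-synthesising enzyme of sympathetic neurons, 3.56 CPM. The neuron markers are 17 genes, of which 16 had counts and 11 were highest in unirradiated library 3. Their sums were 2.20 to 6.26 CPM at day 7, 1.91 to 3.31 CPM at day 14 and 1.48 to 21.6 CPM in unirradiated glands. Of the 3 neuron markers tested, edgeR called 0 at either time against unirradiated glands, and 0 had an unadjusted p under 0.05. Over all tested genes 30.6% were called at day 7 and 1.76% at day 14. Of the 6 tested genes of the GDNF family and its receptors, Nrtn was the only one called at day 7, and Gdnf itself had 0 counts throughout.

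**Figure D4:**
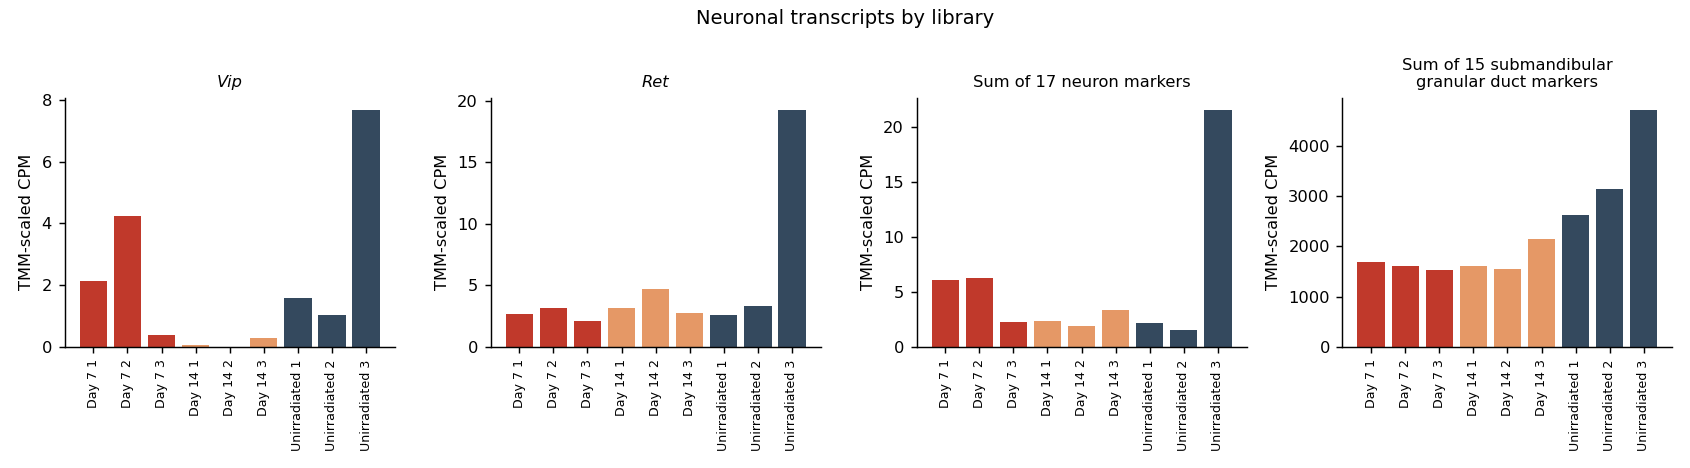
Bars give the level in each library, in TMM-scaled CPM from 0, of Vip, of Ret, of the sum of 17 neuron markers and of the sum of 15 submandibular granular duct markers (Vip and Ret belong to neither list). Unirradiated library 3 has the tallest bar in all 4 panels, at 7.69, 19.3, 21.6 and 4729 CPM; the day 14 bars of Vip are at or near 0.

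Vip, the peptide co-released with acetylcholine, ranged from 0 to 7.69 CPM over the libraries (ENSMUSG00000019772, chromosome 10, 5639218 to 5647617, plus strand). It had 2.12, 4.23 and 0.376 CPM at day 7 (39, 77 and 7 counts), 0.058, 0 and 0.271 CPM at day 14 (1, 0 and 5 counts), and 1.59, 1.01 and 7.69 CPM in unirradiated glands (26, 15 and 136 counts). All 3 day 14 values lie below every value of day 7 and of unirradiated glands, and the other groups overlap. Summed over libraries, Vip had 123 counts at day 7, 6 at day 14 and 177 in unirradiated glands. The fitted log2 change at day 14 was −4.88 against unirradiated glands (SE 1.41, 95% interval −8.18 to −1.59, adjusted p = 0.110) and −4.26 against day 7 (adjusted p = 0.129), and neither passed in edgeR. Both passed without unirradiated library 3 (−3.51, adjusted p = 0.0365, and −4.27, adjusted p = 0.0121), and DESeq2 called the comparison with day 7 (−4.36, adjusted p = 0.0206), while limma-voom did not (−4.12, adjusted p = 0.285). For day 14 against unirradiated glands DESeq2 gave no adjusted p (−4.98, unadjusted p = 0.000256 by its Wald test), so it could not call Vip there. The same comparison was not called in limma-voom (−3.91, adjusted p = 0.317). At day 7 the log2 change was −0.63, with an interval of −2.96 to 1.71, and it was 0.76 without unirradiated library 3. Vip passed the filter on low counts only through unirradiated glands (3 libraries) and day 7 (2 libraries). The 17 neuron markers summed to 1.91 to 3.31 CPM at day 14, against 2.20 to 6.26 CPM at day 7, and their part in the level of Vip was not tested.

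The 250 bases before the RefSeq start of Vip are printed because the gene is a standard example of cyclic AMP control. The sequence lies at chr10:5638968-5639217 on the plus strand of GRCm38.p6, from RefSeq, and capitals mark a CRE-like motif (TGACGTC) 79 bases before the start and 3 TATA boxes (TATAAA) 157, 147 and 30 bases before it.
Vip: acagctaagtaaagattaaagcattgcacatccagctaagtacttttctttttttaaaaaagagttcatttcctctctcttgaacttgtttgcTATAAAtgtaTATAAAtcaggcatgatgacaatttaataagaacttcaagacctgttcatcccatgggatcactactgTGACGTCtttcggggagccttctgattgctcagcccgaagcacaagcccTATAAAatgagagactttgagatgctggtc
Both strands were searched for the CRE-like TGACGTC, the TATA box TATAAA, the GC box GGGCGG and the E-box CACGTG, whose matches do not overlap each other here. Of 32851 RefSeq mouse promoters of this length, 2.78% hold the first, 12.4% the second, 32.7% the third and 6.02% the fourth. A match describes the letters and is not evidence of binding.

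Of the receptors for Vip, Vipr1, which couples to cyclic AMP, was abundant and rose at day 7. Vipr1 had 207, 208 and 189 CPM at day 7, 161, 148 and 155 CPM at day 14, and 154, 135 and 127 CPM in unirradiated glands. Day 7 lies above both other groups without overlap. The log2 change at day 7 was 0.54 (SE 0.0912, adjusted p = 0.000280), a call that held in every alternative fit and omission run (0.47 after the length and GC correction). Vipr1 was lower at day 14 than at day 7 (−0.38, adjusted p = 0.0181), and this call was lost without day 7 library 1 (−0.36) or 2 (−0.36) or without day 14 library 1 (−0.41), 2 (−0.36) or 3 (−0.38). Vipr1 was the 1 of 4 tested VIP and PACAP genes to be called at day 7, where 30.6% of all tested genes were called. Vipr2, the other VIP receptor, had 4.02, 4.34 and 6.39 CPM at day 7, 4.32, 4.25 and 6.07 CPM at day 14, and 6.22, 5.06 and 5.15 CPM in unirradiated glands, with overlap.

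Erbb3 rose at day 7 in every alternative fit and omission run. It encodes a receptor that binds neuregulin and, lacking an active kinase of its own, signals in pairs with other ErbB receptors such as the product of Erbb2 (ENSMUSG00000018166, chromosome 10, 128567523 to 128589652, minus strand). Erbb3 had 168, 182 and 174 CPM at day 7, 128, 155 and 151 CPM at day 14, and 103, 133 and 127 CPM in unirradiated glands. Day 7 lies above both other groups without overlap, and 2 of the 3 day 14 values lie above all unirradiated ones. The level rose 1.44-fold at day 7 (log2 0.53, SE 0.104, adjusted p = 0.000954), and by 0.38 on the log2 scale after the length and GC correction ( adjusted p = 0.00835). At day 14 the log2 change was 0.26 against unirradiated glands (95% interval 0.04 to 0.47, adjusted p = 0.163) and −0.27 against day 7 (adjusted p = 0.119; limma-voom −0.32, adjusted p = 0.0259).

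Erbb3 is also a Schwann cell gene. Of 12 tested markers of Schwann cells and satellite glia, Cdh19 rose at day 7 (log2 1.27) while Sox10 (−0.46) and Cnp (−0.41) fell. Of all tested genes 15.8% rose and 14.8% fell. After the length and GC correction 0 of the 12 were called in either direction, where 21.9% of all tested genes were called. Sox10 is also expressed in salivary epithelium. The 14 markers, none of them at 0 throughout a group, summed to 183 to 191 CPM at day 7, 196 to 202 CPM at day 14 and 195 to 218 CPM in unirradiated glands. The part of these cells in the level of Erbb3 was not tested.

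Nrg1, the neuregulin ligand of this receptor, was scarce and showed the same order of groups (ENSMUSG00000062991, chromosome 8, 31814551 to 32884029, minus strand). Nrg1 had 6.57, 4.61 and 5.54 CPM at day 7, 3.51, 4.14 and 3.68 CPM at day 14, and 2.13, 2.90 and 3.17 CPM in unirradiated glands. The 3 groups do not overlap, with day 14 between the others. Nrg1 rose 2.03-fold at day 7 (log2 1.03, SE 0.262, adjusted p = 0.00621), and the call held without any 1 library (0.87 to 1.14). After the length and GC correction the change was 0.55 (adjusted p = 0.124). The values at day 14 were 0.47 against unirradiated glands (adjusted p = 0.324) and −0.56 against day 7 (adjusted p = 0.194). In the gene model, 4.66% of the exonic bases of Nrg1 are shared with Gm26578 on the other strand.

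Per length the receptor far exceeded its ligand. Erbb3 stood at 43.9, 67.9 and 53.9 times the Nrg1 level at day 7, 62.7, 64.3 and 70.5 times at day 14, and 83.1, 79.1 and 68.7 times in unirradiated glands. Day 7 lies below unirradiated glands without overlap, but narrowly. Erbb3 and Nrg1 differ in exonic length (6016 and 10351 bases), and the ratios carry no correction for the trend of changes with length. With the length of the longest transcript, a choice made after seeing the data, Erbb3 stood at 23.0, 35.5 and 28.2 times the Nrg1 level at day 7, 32.8, 33.6 and 36.9 times at day 14, and 43.5, 41.4 and 36.0 times in unirradiated glands. Of 11 tested neuregulins, ErbB receptors and ErbB ligands, 3 rose at day 7, where 15.8% of all tested genes rose. They were Nrg1, Erbb3 and Egf, the epidermal growth factor that salivary ducts secrete (0.39, corrected 0.10). With the length and GC correction 2 of the 11 were called higher, Erbb3 and a gene other than Nrg1 and Egf, where 1130 of all 15348 tested genes were. Erbb2, the partner receptor, had 80.3, 87.7 and 79.4 CPM at day 7, 74.4, 69.0 and 87.2 CPM at day 14, and 60.4, 79.7 and 71.4 CPM in unirradiated glands, and was not called. Erbb4, the other neuregulin-binding receptor, had at most 1.81 CPM.

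Sema3c, a secreted semaphorin that acts through neuropilins and plexins, was the member called at both times (ENSMUSG00000028780, chromosome 5, 17574281 to 17730268, plus strand). Sema3c had 33.8, 31.9 and 34.7 CPM at day 7, 31.2, 34.8 and 37.0 CPM at day 14, and 22.3, 26.1 and 25.9 CPM in unirradiated glands. All 6 irradiated values lie above all unirradiated ones, and day 7 and day 14 overlap. The change was 1.35-fold at day 7 (log2 0.44, SE 0.116, adjusted p = 0.00817) and 1.39-fold at day 14 (log2 0.47, SE 0.116, adjusted p = 0.0429), with −0.20 to 0.28 as the 95% interval of the log2 difference between day 14 and day 7.

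The day 7 call of Sema3c held in every omission (0.36 to 0.47), while the day 14 call was lost in 7 of 9. These were the omissions of day 7 library 2 (0.47) or 3 (0.47), of day 14 library 1 (0.54), 2 (0.44) or 3 (0.42), and of unirradiated library 1 (0.39) or 2 (0.49). The day 14 call was also lost when only the day 14 and unirradiated libraries were fitted (0.48, adjusted p = 0.0695). After the length and GC correction neither time passed (0.03 at day 7 and 0.19 at day 14).

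Sema3a, the semaphorin known for repelling axons, was close to absent in unirradiated glands (ENSMUSG00000028883, chromosome 5, 13125414 to 13602565, plus strand). Sema3a had 21, 10 and 17 counts at day 7, 17, 27 and 9 counts at day 14, and 6, 3 and 3 counts in unirradiated glands. As levels these were 1.14, 0.549 and 0.914 CPM at day 7, 0.993, 1.43 and 0.488 CPM at day 14, and 0.366, 0.202 and 0.170 CPM in unirradiated glands. All 6 irradiated values lie above all unirradiated ones. The log2 change was 1.79 at day 7 (SE 0.662, adjusted p = 0.0466) and 1.95 at day 14 (SE 0.658, adjusted p = 0.101), and the first just passed. That call held without day 14 library 3 and was lost in the other 8 omissions: without day 7 library 1 (1.55), 2 (2.03) or 3 (1.75), day 14 library 1 (1.79) or 2 (1.78), or unirradiated library 1 (2.18), 2 (1.67) or 3 (1.55). It was also lost in limma-voom (1.62, adjusted p = 0.0661), with no filter on low counts (1.79, adjusted p = 0.0713) and after the length and GC correction (1.20, adjusted p = 0.228). Sema3a passed the filter only through the irradiated libraries (3 at day 7 and 2 at day 14), so a difference in this direction was a condition of its being tested.

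Per length Sema3c exceeded Sema3a by 57.5, 113 and 73.8 times at day 7, 61.0, 47.1 and 147 times at day 14, and 118, 251 and 296 times in unirradiated glands. Day 7 lies below unirradiated glands without overlap and day 14 overlaps them. The unirradiated ratios rest on the few Sema3a counts given above, and Sema3a passed the filter only through irradiated libraries. Sema3c and Sema3a also differ in exonic length (7140 and 13868 bases), and the ratios carry no correction for the trend of changes with length. With the length of the longest transcript each of these 9 values is 1.80 times lower, which leaves 62.7 times as the highest at day 7, 81.8 times as the highest at day 14 and 65.7 times as the lowest in unirradiated glands.

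Nrtn and Sema3c were called on either side of 0 at day 7. The sequences before their RefSeq starts are printed because their transcripts also differ in G and C content (72.8% and 42.7%). Both are 250 bases before the RefSeq start on GRCm38.p6, Nrtn at chr17:56757549-56757798 on the minus strand and Sema3c at chr5:17574566-17574815 on the plus strand, with GC boxes (GGGCGG or its reverse complement) in capitals. The Sema3c window lies inside the GENCODE gene model, which starts at 17574281, so it is not upstream of that model.
Nrtn: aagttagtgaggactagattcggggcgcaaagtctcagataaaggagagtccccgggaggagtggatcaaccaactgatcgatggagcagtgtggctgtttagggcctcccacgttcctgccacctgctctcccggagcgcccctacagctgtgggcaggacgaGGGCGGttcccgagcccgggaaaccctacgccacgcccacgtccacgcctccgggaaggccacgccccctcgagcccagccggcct
Sema3c: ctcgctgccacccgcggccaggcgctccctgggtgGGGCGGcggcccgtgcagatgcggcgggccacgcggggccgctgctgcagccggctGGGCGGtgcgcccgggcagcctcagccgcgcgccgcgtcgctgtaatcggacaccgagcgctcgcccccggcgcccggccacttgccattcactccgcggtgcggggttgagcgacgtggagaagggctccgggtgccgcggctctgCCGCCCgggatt
The Nrtn window holds 1 GC box, 86 bases before the start, and the Sema3c window 3, at 215, 159 and 12 bases before it. G and C make up 64.8% of the Nrtn window and 78.4% of the Sema3c window, against 38.4% for Vip and a median of 52.4% over all promoters. Such RefSeq windows were found for 5 of the 10 genes, and those of Chrm3 and Sema3a hold none of the 4 motifs. The Sema3a window (chr5:13396534-13396783) lies inside the GENCODE gene model used here, and that of Chrm3 (chr13:10360804-10361053) overlaps the start of its model. Neither is wholly upstream of that model, so the missing motifs do not describe the sequence before its start.

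Some other class 3 semaphorins also rose at day 7. Apart from Sema3a, which entered the test only through irradiated libraries, 3 of 6 rose (Sema3c, Sema3d and Sema3f), where 15.8% of all tested genes rose, 0 fell, and their median log2 change was 0.50 against 0.02 for all genes. After the length and GC correction 2 were called higher, Sema3d and Sema3f, where 1130 of all 15348 tested genes were. The median of all 7, Sema3a included, was 0.57 without the correction and 0.17 with it, against 0.02 and −0.06 for all genes. Sema3d had 16.1, 13.6 and 12.1 CPM at day 7, 8.41, 15.2 and 8.51 CPM at day 14, and 3.48, 6.07 and 9.16 CPM in unirradiated glands. It rose at day 7 (log2 1.16, SE 0.312, adjusted p = 0.0138, corrected 0.67), a call lost without day 7 library 1 (1.04) or unirradiated library 2 (1.13). Sema3f had 19.1, 18.6 and 18.1 CPM at day 7, 15.8, 13.4 and 17.9 CPM at day 14, and 12.0, 14.8 and 10.9 CPM in unirradiated glands. It rose at day 7 (log2 0.57, SE 0.155, adjusted p = 0.00949, corrected 0.56) and held in every alternative fit and omission run. At day 14, 1 of the 6 was called (Sema3c), where 1.76% of all tested genes were called.

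At day 7, 15.8% of all tested genes rose, the share to set beside the counts of risen receptors and markers here. Of 7 semaphorin receptors, 2 rose at day 7 and lost the call with the correction: Plxna2, a plexin (0.68, corrected 0.34), and Nrp2, a neuropilin that binds Sema3c and Sema3f (0.52, corrected 0.24). Nrp2 was also lost without day 7 library 1 (0.46) or 2 (0.48) or unirradiated library 1 (0.41) or 2 (0.54). The summed levels of fibroblast and endothelial markers, from cells that can express these cues and receptors, were higher in irradiated glands, but not the level of each marker. The 7 fibroblast markers summed to 412 to 507 CPM at day 7, 409 to 528 CPM at day 14 and 366 to 393 CPM in unirradiated glands, and 3 of 7 rose at day 7 (the collagens Col1a1, Col1a2 and Col3a1), against 2 called higher and 1 lower with the length and GC correction. The 7 endothelial markers summed to 417 to 500 CPM at day 7, 395 to 440 CPM at day 14 and 336 to 380 CPM in unirradiated glands, and 2 of 7 rose at day 7 (Tek and Vwf), against 0 with the correction. Cldn5 (0.499-fold at day 7 and 0.652-fold at day 14), Emcn (0.961-fold and 0.746-fold) and Dpt at day 7 (0.797-fold) were below 1 and not called. At day 14 edgeR called 0 of 7 markers in either list, with an unadjusted p under 0.05 for 3 fibroblast markers and 1 endothelial marker. The share of all genes at that unadjusted p was not counted. No marker of either list was at 0 in any library, and the part of these cells in the semaphorin results was not tested.

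The genes called at day 7 in the remaining nerve-related lists follow. Of all tested genes 15.8% rose at that time and 14.8% fell. Slit3, a secreted guidance cue, rose, with 12.6, 9.34 and 9.24 CPM at day 7, 6.66, 9.45 and 6.72 CPM at day 14, and 5.31, 2.97 and 4.58 CPM in unirradiated glands (log2 1.27, SE 0.235, adjusted p = 0.000588, corrected 1.21). Its call held in every alternative fit and omission run. Robo1, a receptor for slits, rose by 0.85 (corrected 0.53, not called), and lost its call without day 7 library 1 (0.74) or 3 (0.87) or unirradiated library 1 (0.88) or 2 (0.57). These were the 2 called of 11 tested netrins, slits and receptors.

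Of 7 tested neurotrophins and receptors 1 rose, Sort1, which encodes the sorting receptor sortilin (0.27, corrected 0.07, lost without day 7 library 1, 0.25, or 2, 0.26, or unirradiated library 1, 0.23, or 2, 0.26). With the length and GC correction 0 of the 7 were called higher and 1 lower, where 1130 and 2232 of all 15348 tested genes were. The median log2 change of the 7 was −0.19 without the correction and −0.47 with it, against 0.02 and −0.06 for all genes. Of 5 tested receptors for other autonomic transmitters, the ATP-gated channel P2rx7 rose (0.36, corrected 0.20, lost without unirradiated library 2, 0.30) and P2rx4, another such channel, fell (−0.26, corrected −0.49). P2rx4 lost its call without day 7 library 1 (−0.23) or 2 (−0.27) or unirradiated library 1 (−0.24) or 2 (−0.24). Between day 14 and day 7, Robo4, an endothelial member of the Robo family, was lower at day 14, with 3.39, 2.82 and 4.39 CPM at day 14 and 5.32, 7.91 and 6.61 CPM at day 7 (log2 −0.90, adjusted p = 0.0402). Robo4 lost this call without day 7 library 1 (−1.04), 2 (−0.76) or 3 (−0.90) or day 14 library 1 (−0.88) or 2 (−0.77).

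**Figure D5:**
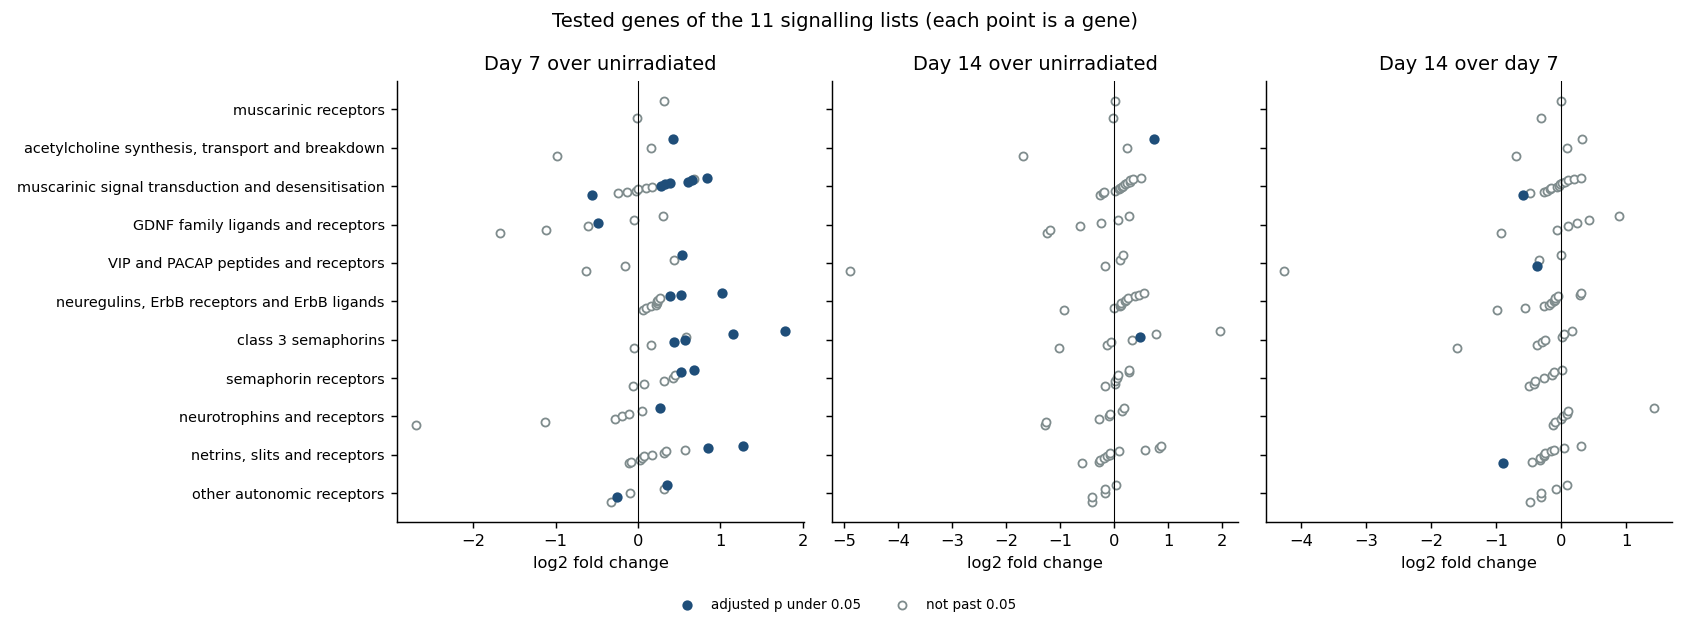
Each point is a tested gene of 11 signalling lists, placed by its log2 fold change from edgeR; filled points have an adjusted p under 0.05. At day 7 over unirradiated glands the filled points lie mostly to the right of 0. The class 3 semaphorins hold 4 of them, counting Sema3a, which passed the filter only through irradiated libraries. The 2 other panels hold 2 and 3 filled points.

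Per exonic length, the 10 genes covered about 3 orders of magnitude. At day 7 the order of mean level per kilobase was Erbb3 (29.0 ± 1.20 CPM per kilobase, SD, n = 3), Nrtn (20.4 ± 0.608), Chrm3 (10.2 ± 0.368), Chrm1 (6.85 ± 0.634) and Sema3c (4.69 ± 0.199), each clear of the next, then Vip (0.659 ± 0.567), Nrg1 (0.538 ± 0.0946), Ret (0.392 ± 0.0807) and Gfra2 (0.363 ± 0.0880), whose neighbours overlap, and last Sema3a (0.0626 ± 0.0215). At day 14 Nrtn (24.1 ± 1.07) and Erbb3 (24.0 ± 2.44) overlapped, as did Chrm1 (5.53 ± 0.394) and Sema3c (4.81 ± 0.407), and Vip stood last at 0.0323 ± 0.0419 CPM per kilobase. In unirradiated glands Nrtn (28.5 ± 5.55) stood above Erbb3 (20.1 ± 2.64) without overlap, followed by Chrm3 (10.3 ± 0.260), Chrm1 (5.50 ± 0.856) and Sema3c (3.46 ± 0.301), and Sema3a was lowest at 0.0177 ± 0.00758. Nrtn and Erbb3 thus stood in opposite order at day 7 and in unirradiated glands, with no overlap between them in either group, though in unirradiated glands the nearest libraries stood at 22.4 for Nrtn and 22.2 for Erbb3. These levels carry no correction for the trend of changes with length and GC content. The 2 genes lie in length deciles 1 and 8, whose median log2 changes at day 7 were −0.37 and 0.18. After the correction Nrtn changed by −0.23 (not called) and Erbb3 by 0.38 (called). The part of length in this order was not tested.

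For each called gene the profiles nearest to it were sought among tested genes with a mean of at least 1 CPM, by the mean absolute difference of centred log2 CPM over the 9 libraries. Erbb3 was nearest to Pitrm1 (0.0413) and Ctnnb1 (0.0433), Nrtn to Fxyd3 (0.0473) and Aph1a (0.0492), and Sema3c to Cask (0.0466) and Strbp (0.0543). Nrg1 was nearest to Sntb2 (0.0656) and Deptor (0.0760). The nearest profiles of Sema3a, Stac3 (0.347) and Sulf1 (0.350), were less alike.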

How the data were processed

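RNA-seq of 9 mouse sublingual gland libraries was used. The authors deposited raw whole-number counts per gene. STAR, featureCounts and DESeq2 are named with mm10, per the submitters' processing notes; the sources used here do not give their versions, the annotation or the strand setting. Identifiers were matched to GENCODE M21 on GRCm38 for symbols, coordinates (from 1) and exonic lengths. Counts were tested with edgeR 4.0.16 in R 4.3.3: filterByExpr (at least 0.568 CPM in 3 libraries), TMM scaling and the two-sided quasi-likelihood test on 3 groups, all 9 libraries sharing the spread (6 residual degrees of freedom); the code was first tested on simulated data. Alternatives were other scalings and filters, DESeq2 1.42.0, limma-voom (limma 3.58.1), a spline correction for length and GC content, fits of 6 libraries, a block for the replicate number, a threshold of 0.01 and each library left out. The 10 genes, lists and alternatives were chosen with earlier results of these data known; alternatives to the test of any difference were added after seeing the data. Named are all 10 genes, up to 6 called genes per list by smallest p over the 3 groups, and the 2 nearest profiles of each called member; other genes named for context were chosen after their values were seen. All libraries differed beyond sampling noise within their group, with chi-square over degrees of freedom from 9.93 to 138. The values of 138 and 96.2 belong to the pairs of unirradiated library 3 with libraries 1 and 2, and the other pairs reached at most 31.3. Limits from counts cover counting error only.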

Additional observations from a re-analysis of the deposited data

Results flagged for a closer look

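The 3 results below were picked out because the effect at day 14 and that at day 7, each against the same unirradiated libraries, differed by the direct edgeR test of day 14 against day 7; none of the 10 genes met this at an adjusted p under 0.05. The log2 difference of Itpr3, the IP3 receptor, was −0.60, that of Vipr1, the VIP receptor, was −0.38, and that of Robo4 was −0.90. For Itpr3 the 3 libraries of each group are apart from those of the others. No test of a single library was run, and the high values of Ret and Vip in unirradiated library 3 are given as values only.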

How the results depend on the processing

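Against unirradiated glands at day 7, 4692 genes passed as reported, 3362 with the length and GC correction, 3214 with the replicate block and that correction, and 2631 at an adjusted p under 0.01. Of the 10 genes 5 were called as reported, 1 with the length and GC correction, 1 with the replicate block and that correction, and 3 at an adjusted p under 0.01. At day 14, 270 genes passed as reported, 1300 with no filter on low counts, 1042 in DESeq2, 1678 in limma-voom, 157 when only the 6 libraries compared were fitted, 113 with the replicate block, 144 with the length and GC correction, 121 with the block and the correction, and 11 at an adjusted p under 0.01. Of the 10 genes 1 was called as reported, and 0 in the fit of 6 libraries, with the block, with the correction, with both, or at an adjusted p under 0.01. Between day 14 and day 7, 1011 genes passed, 1426 in DESeq2, 1874 in limma-voom and 264 at an adjusted p under 0.01. Of the 10 genes DESeq2 called 1 and limma-voom 2. The test of any difference called 4 of the 10, 1 with the length and GC correction, 1 with the block and the correction, and 2 at an adjusted p under 0.01. Stricter thresholds lower counts by construction; the cause of the other shifts was not tested. The fit of 6 libraries gave no value for Sema3a at day 14 or for Vip between day 14 and day 7, as the filter dropped them.

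With a library left out, between 3106 (without day 7 library 1) and 5314 (without unirradiated library 3) genes passed at day 7, with 4 to 5 of the 10. At day 14 between 13 and 1937 passed, with 0 to 3 of the 10: 13 without unirradiated library 1, 15 without 2 and 1937 without 3, 71, 36 and 31 without day 14 libraries 1, 2 and 3, and 148 without day 7 library 2. Between day 14 and day 7, 330 to 1415 passed, with 0 to 1 of the 10: 403, 330 and 636 without day 7 libraries 1, 2 and 3, and 410, 436 and 564 without day 14 libraries 1, 2 and 3. The test of any difference called 2 to 5 of the 10, and 2 without day 7 library 1 or unirradiated library 1.

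Some signs turned, most of them of changes near 0; Ret at day 14 (−1.25 as reported), Vip at day 7 (−0.63) and the called Bche at day 7 (0.42) also turned. Chrm1 at day 14 was −0.014 with DESeq2 size factors, −0.012 with TMM without the 20 most abundant genes, −0.014 in DESeq2, −0.044 in limma-voom, −0.036 with the length and GC correction and −0.032 with the block and the correction, and ran from −0.15 to 0.088 over omissions. Chrm3 between day 14 and day 7 was 0.081 with the correction, with or without the block. Over omissions Chrm3 ran from −0.052 to 0.019 there, from −0.042 to 0.014 at day 7 and from −0.062 to 0.0082 at day 14. Gfra2 at day 7 was 0.038 with the correction and 0.034 with the block added, and over omissions ran from −0.25 to 0.10 there, from −0.070 to 0.27 at day 14 and from −0.034 to 0.33 between the times. Vip at day 7 was 0.21 in limma-voom and ran from −1.46 to 0.76 over omissions, Ret at day 14 from −1.69 to 0.25, Sema3a between day 14 and day 7 from −0.24 to 0.48 and Sema3c from −0.019 to 0.10. Bche at day 7 was −0.063 with the correction and −0.066 with the block added. With the length of the longest transcript in place of all exons, 13 of 30 levels per length moved by over 1 SD.

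Libraries with the same number did not deviate together (correlations −0.11 to 0.04), so the numbers were not taken as pairs. With the replicate block 4 of the 10 were called at day 7 (Sema3a was not, log2 1.83) and 0 at day 14 (Sema3c 0.47), with 4319, 113 and 746 genes called at day 7, at day 14 and between the times. Depth limits Vip, Sema3a and Gfra2, which had at most 136, 27 and 30 counts in a library.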
